A study of Mus musculus with 16 samples.

Results

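Transcripts of the growth hormone and IGF1 axis were compared in the livers of mice with and without Zfp36l1, on a control diet and on a diet with ethanol. The axis was taken as 10 genes, which are the growth hormone receptor Ghr, the signal transducers Stat5a and Stat5b, the growth hormone targets Socs2, Cish and Bcl6, the growth factor Igf1, and its binding partners Igfals, Igfbp2 and Igfbp3. Members were found by symbol among the 35275 mouse Ensembl gene IDs of the deposited table. All 10 matched 1 ID each, and all 10 passed the filter on low values, which asked that 4 or more of the 16 libraries reach an FPKM of 1. FPKM, a read count divided by gene length and by library depth, is the unit of every level given here.

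Growth hormone from the pituitary binds its receptor on the hepatocyte, which activates the kinase JAK2 and then the STAT5 transcription factors. STAT5 raises transcription of Igf1, of Igfals, and of feedback inhibitors such as Socs2 and Cish. The liver is the main source of IGF1 in the blood, where it circulates in a complex with IGFBP3 and the acid-labile subunit encoded by Igfals. The pattern of growth hormone pulses differs between male and female rodents, and many liver genes with sex-biased expression depend on it through STAT5.

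The 4 groups held 4 libraries each. Control-diet and ethanol-diet mice were either wild type (WT) or carried a liver-specific knockout of Zfp36l1 (LKO), a gene whose protein binds AU-rich elements of messenger RNA and shortens transcript life. The Cre driver of the deletion, and the sex, age, strain and feeding scheme, are not given in the sources used here. Nothing in the labels says that libraries came from separate animals, so p-values measure the spread between these libraries. Library numbers follow the order of the records, and no label says that they pair libraries.

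The whole reads behind the FPKM values totalled 9884479 in WT ethanol library 2 and at least 19069828 in the 15 others, up to 24768501. Zfp36l1 measured 0.572 to 1.76 FPKM in the 8 LKO libraries and 9.30 to 25.5 in the 8 WT libraries. WT ethanol library 2 stood apart, with 22.5% of its reads from mitochondrial genes against 3.64 to 6.97% in the others. Its Spearman correlation with the other libraries was 0.664 to 0.721, against 0.858 to 0.985 among them. Xist measured 13.7 to 49.4 FPKM in those 15 libraries and 4 genes of the Y chromosome at most 0.045. By these markers the 15 libraries, LKO control library 4 among them, have the pattern of female tissue, though no label gives the sex. WT ethanol library 2 had 6.62 FPKM of Xist and 0.178 to 1.43 of the Y genes. LKO control library 4 also stood apart in sex-biased genes, as described with those genes. Within groups, libraries 1 and 2 separated from libraries 3 and 4 on a component that carried 40.0% of the variance within groups among the 15, and the labels name no batch. Summed levels of 9 hepatocyte markers were 80572 to 94948 FPKM in WT control and 61510 to 97456 in WT ethanol. They were 80496 to 97068 in LKO control and 77573 to 95969 in LKO ethanol, and none of the 9 was at 0. The 97456 belonged to WT ethanol library 2, with 34502 of Apoa1 and 29516 of Apoa2. Its Alb (23000) and Hnf4a (22.2) were the lowest of the 16 libraries. The other WT ethanol libraries summed to 93825 at most.

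Binding sites of STAT5 read TTCNNNGAA, a motif that is its own reverse complement and so lies on both strands at once. RefSeq promoters on GRCm38.p6, from 250 bases before to 50 after each start site, were found for 9 of the 10 members, and those of Cish, Igfals and Bcl6 held the motif. Among all 27025 genes with a promoter in the table, 9.55% held it. The windows are shown for these 3 genes, which respond to growth hormone, with the motif in capitals, Cish at chr9:107296409-107296708 (plus strand), the second Igfals window at chr17:24877981-24878280 (plus strand) and the second Bcl6 window at chr16:23981234-23981533 (minus strand). The promoters of Ghr, Igf1, Igfbp2, Igfbp3, Stat5a and Stat5b did not hold these letters in this window.
Cish promoter: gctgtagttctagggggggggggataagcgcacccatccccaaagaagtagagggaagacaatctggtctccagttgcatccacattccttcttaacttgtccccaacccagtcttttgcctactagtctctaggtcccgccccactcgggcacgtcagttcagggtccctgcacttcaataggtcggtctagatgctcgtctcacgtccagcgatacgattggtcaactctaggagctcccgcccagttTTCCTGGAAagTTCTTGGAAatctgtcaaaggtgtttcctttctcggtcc
Igfals promoter: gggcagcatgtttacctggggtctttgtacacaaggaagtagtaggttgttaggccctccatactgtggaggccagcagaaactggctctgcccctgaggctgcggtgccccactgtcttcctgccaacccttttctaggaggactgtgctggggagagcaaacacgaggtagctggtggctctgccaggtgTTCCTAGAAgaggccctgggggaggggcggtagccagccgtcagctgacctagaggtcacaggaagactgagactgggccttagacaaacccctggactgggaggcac
Bcl6 promoter: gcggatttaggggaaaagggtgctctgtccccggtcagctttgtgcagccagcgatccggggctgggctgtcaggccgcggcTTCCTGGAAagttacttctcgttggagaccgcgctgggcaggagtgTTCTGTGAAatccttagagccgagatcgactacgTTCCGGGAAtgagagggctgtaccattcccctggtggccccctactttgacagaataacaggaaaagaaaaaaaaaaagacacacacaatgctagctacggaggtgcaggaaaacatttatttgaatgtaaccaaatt

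Because the deleted protein binds AU-rich elements, the 3′ untranslated regions of the members were searched for TATTTAT on the transcribed strand. It was found in 5 of the 10 members (Cish, Igfbp2, Igfbp3, Stat5b and Socs2) and in 29.1% of the 10529 kept genes with such a region in GENCODE M21. The longer form TTATTTATT was found in Cish and Stat5b, and in 7.71% of those genes. A Cish site lies at chr9:107301380-107301402 (plus strand) and the Stat5b site at chr11:100781522-100781544 (minus strand) on GRCm38, with the motif in capitals. In the Cish stretch 2 copies of the longer form overlap, and only the first is in capitals.
Cish site: acagtatTTATTTATTtattctc
Stat5b site: tagtaaaTTATTTATTgggagat

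Levels per kilobase spanned a wide range across the axis. Igfbp2 was the most abundant member, with a median of 611 FPKM over the 16 libraries, followed by Igf1 at 80.7, Ghr at 78.8 and Igfals at 32.5. Stat5b (9.79), Socs2 (8.20) and Igfbp3 (5.68) lay lower, and Bcl6 (2.94), Stat5a (2.6) and Cish (1.79) lowest. The ranges of Igf1 and Ghr overlapped widely, as did those of Bcl6, Stat5a and Cish.

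**Figure D1:**
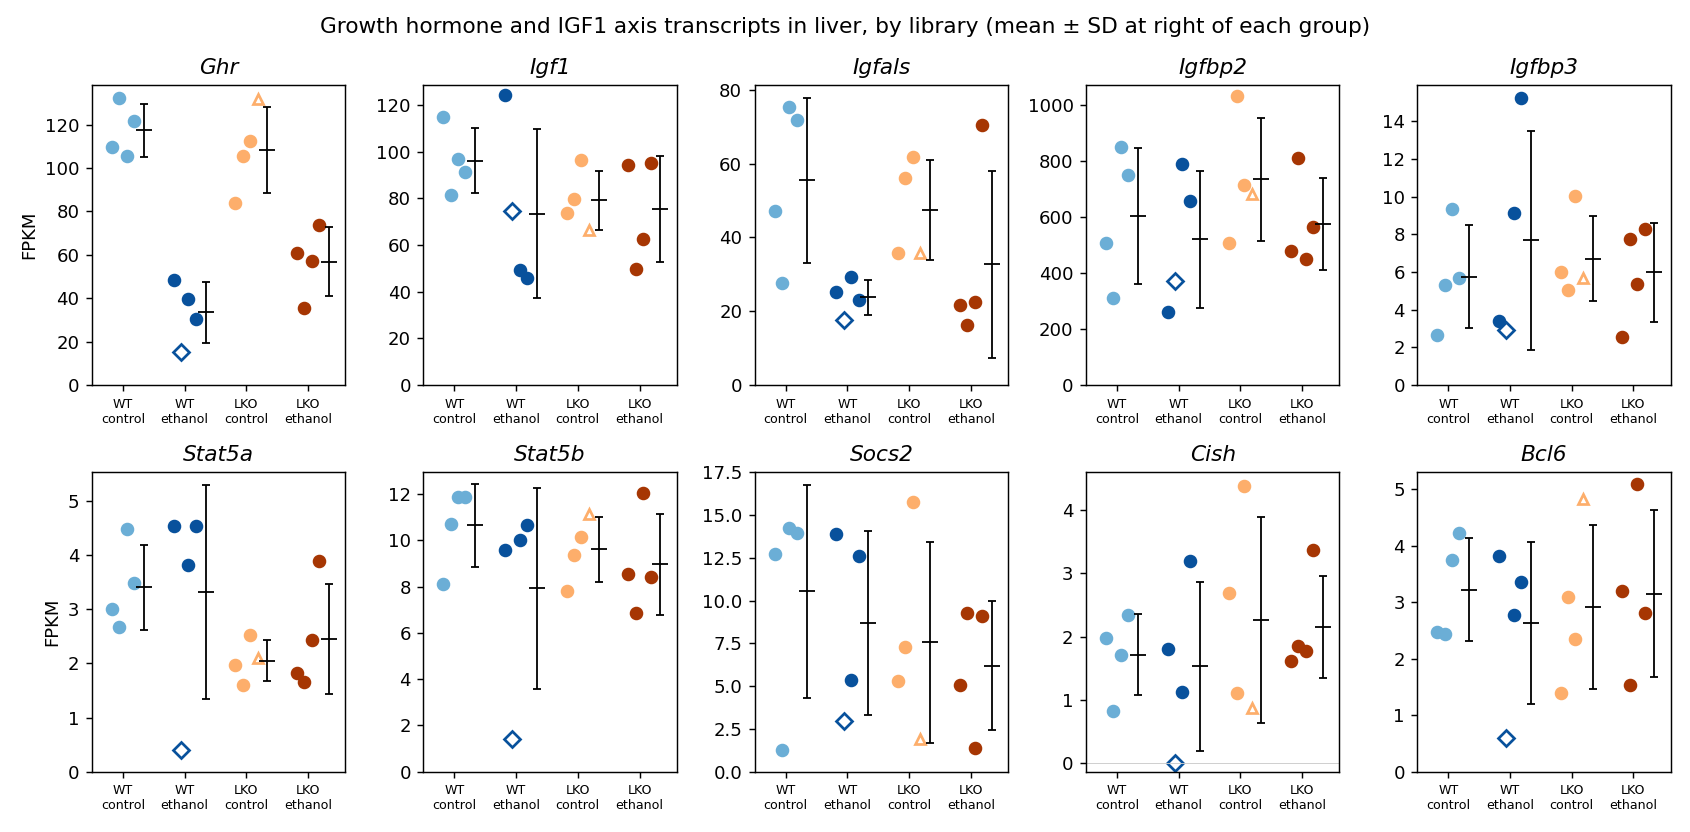
FPKM of the 10 members in each library (vertical axis, linear, 1 panel per gene), by genotype and diet, with the mean ± SD of each group beside its 4 points. Open diamonds are WT ethanol library 2 and open triangles LKO control library 4. Ghr is the member whose 8 ethanol libraries all lie below the 8 control libraries.

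Ghr, the receptor through which the liver senses growth hormone, was the member that fell on the ethanol diet. Ghr (ENSMUSG00000055737, chromosome 15, 3317760 to 3583492, minus strand, GRCm38) measured 109.7, 132, 106 and 121 FPKM in the WT control libraries and 48.5, 15.3, 39.7 and 30.5 in the WT ethanol libraries. In LKO it measured 83.7, 106, 112 and 132 with the control diet, against 60.7, 35.6, 57.2 and 73.8 with ethanol. All 8 ethanol libraries lay below all 8 control libraries, whose lowest value was 83.7. Such a separation by diet over both genotypes was seen for 2% of all genes tested. Within WT 10.1% of genes separated in this way, and within LKO 12.3%. The 4 WT ethanol libraries did not lie wholly below the 4 LKO ethanol libraries, because LKO ethanol library 2 (35.6) was lower than WT ethanol libraries 1 and 3.

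Group means of Ghr were 117 ± 12.1 FPKM in WT control, 33.5 ± 14.2 in WT ethanol, 108 ± 19.8 in LKO control and 56.8 ± 15.9 in LKO ethanol (SD, n = 4 each). Differences were tested with limma on log2(FPKM + 1), adjusted by Benjamini-Hochberg over 11298 genes and called at an adjusted p under 0.05. Ghr changed by −1.89 in WT (SE 0.322, adjusted p = 0.00559) and by −1.42 averaged over genotypes (SE 0.228, adjusted p = 0.0015). It was the single member called in WT, where 4.18% of all genes were called, and the single member called in the average, where 7.78% were. In LKO the change was −0.95 (SE 0.322) and missed the threshold (adjusted p = 0.28), where 0.425% of genes and 0 members were called.

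The lower Ghr level in WT and in the average did not rest on the libraries that stood apart. Without WT ethanol library 2 the change was −1.56 in WT (adjusted p = 0.00247, with 9.48% of genes called), −0.95 in LKO (adjusted p = 0.0282, 3.62% called) and −1.26 in the average (adjusted p = 0.000208, 20.5% called). Without LKO control library 4 as well, Ghr changed by −0.85 in LKO (adjusted p = 0.0927, 1.44% called) and by −1.21 in the average (adjusted p = 0.000573, 16.9% called). In a fit of 10 libraries whose titles carry consecutive numbers, the Ghr difference was −2.13 in WT (adjusted p = 0.0629) and −1.56 in the average (adjusted p = 0.0557), and neither was called. Among libraries 1 and 2 of each group the Ghr difference was −1.30 in WT, where WT ethanol had 1 library left, and −1.0 in LKO. Among libraries 3 and 4 it was −1.68 in WT and −0.89 in LKO. In bulk liver, fewer cells of a type and less RNA per cell cannot be told apart.

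The drop of Ghr was numerically smaller in LKO, but the difference between genotypes did not pass the test. The interaction, the ethanol change in LKO minus that in WT, was 0.94 for Ghr (SE 0.456, adjusted p = 0.93), and 0.62 without WT ethanol library 2 (adjusted p = 0.97). No member and no gene was called for the interaction on all libraries without weights (0% of genes by limma, with 362 at an unadjusted p under 0.05). With libraries weighted by their spread 4.48% of all genes and no member were called for it, and the Ghr value was 0.81 (adjusted p = 0.0742). Between LKO and WT fed ethanol, Ghr differed by 0.81 (SE 0.322, adjusted p = 0.35), and by 0.49 without WT ethanol library 2. With libraries weighted by their spread it differed by 0.62 (adjusted p = 0.0241), past the threshold, where 30.7% of all genes were called. In that fit the WT ethanol libraries 1 to 4 had weights of 0.278, 0.0418, 4.998 and 1.06, so its WT ethanol level follows mostly library 3. Within sides that difference was −0.06 among libraries 1 and 2, with 1 WT library, and 0.88 among libraries 3 and 4, so its sign was not the same in both. This genotype comparison shares the WT ethanol group with the diet comparison in WT.

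**Figure D2:**
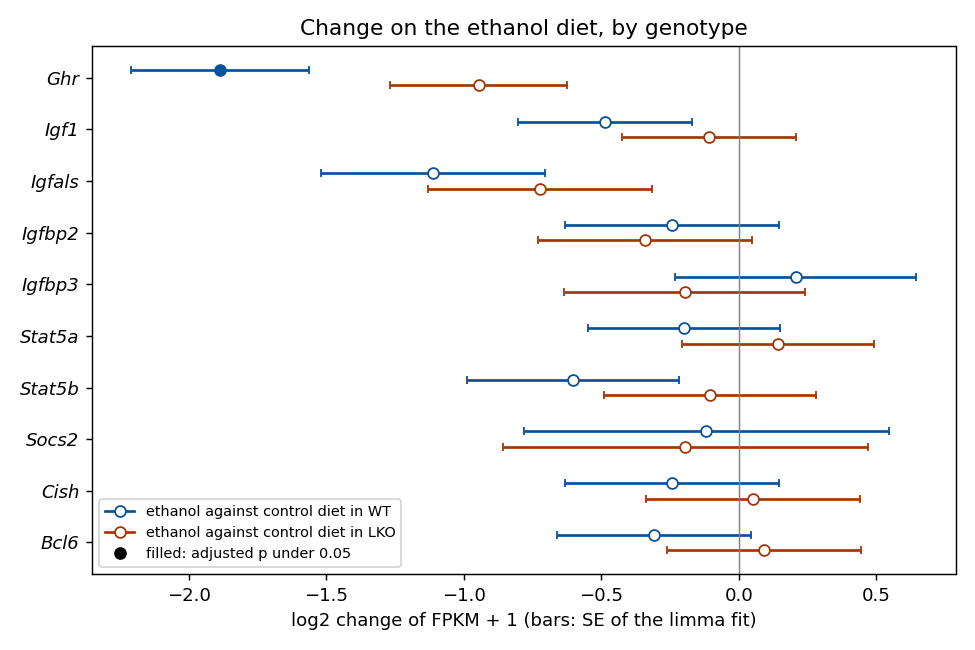
Log2 change of FPKM + 1 on ethanol against control diet (horizontal axis) for each member in WT (blue) and LKO (brown), with bars of 1 SE from the limma fit and filled points at an adjusted p under 0.05. Ghr in WT, at −1.89, is the filled point.

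Stat5a and Stat5b encode the transcription factors that carry the growth hormone signal to the nucleus, and Stat5b is the more abundant in liver. Stat5b measured 8.11, 10.7, 11.9 and 11.9 FPKM in WT control, 9.57, 1.44, 10.02 and 10.7 in WT ethanol, 7.79, 9.38, 10.2 and 11.1 in LKO control, and 8.56, 6.85, 12.02 and 8.40 in LKO ethanol. Apart from WT ethanol library 2, every library lay between 6.85 and 12.02. Averaged over genotypes, Stat5b changed by −0.36 on ethanol (adjusted p = 0.50), and by −0.08 without that library.

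Stat5a measured 3.01, 2.67, 4.48 and 3.48 FPKM in WT control and 1.97, 1.61, 2.52 and 2.10 in LKO control. The LKO control libraries lay below the WT control libraries without overlap, as 9.25% of all genes did in 1 direction or the other. On ethanol the values were 4.53, 0.409, 3.82 and 4.54 in WT and 1.82, 1.65, 2.43 and 3.89 in LKO, and the groups overlapped. The difference of Stat5a between LKO and WT was −0.52 on the control diet (SE 0.350, adjusted p = 1) and −0.35 averaged over diets (SE 0.248, adjusted p = 0.67). Leaving out WT ethanol library 2 gave −0.59 for the average (adjusted p = 0.0557, 1.07% of all genes called). Adding a term for the 2 sides within groups to that fit gave −0.57 (adjusted p = 0.0154). That is past the threshold, where 1255 of 11298 genes were called. With weighted libraries the value was −0.53, also past it (adjusted p = 0.0065, where 34.1% of all genes were called). Weighted in this way Stat5a also differed between LKO and WT on ethanol, by −0.50 (adjusted p = 0.0498, 30.7% of all genes called). Stat5a lies beside Stat5b and Stat3 on chromosome 11, and its annotated end overlaps that of Stat3, so reads there may be shared where counting ignored strand.

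Socs2, Cish and Bcl6, which respond to growth hormone, overlapped between all groups. Socs2, which encodes a feedback inhibitor of growth hormone signalling, measured 12.7, 1.27, 14.2 and 14.0 FPKM in WT control, 13.9, 2.98, 5.35 and 12.6 in WT ethanol, 5.28, 7.30, 15.7 and 1.91 in LKO control, and 5.05, 9.26, 1.37 and 9.10 in LKO ethanol. Each group thus held at least 1 library at or under 2.98 and at least 1 at 9.26 or more. Socs2 changed by −0.16 on ethanol averaged over genotypes (SE 0.469, adjusted p = 0.89), with the largest standard error of the 10 members.

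Cish, another feedback inhibitor of the SOCS family, was low, with 0 to 501 reads per library. It measured 1.98, 0.830, 1.70 and 2.34 FPKM in WT control, 1.81, 0, 1.12 and 3.19 in WT ethanol, 2.69, 1.11, 4.39 and 0.871 in LKO control, and 1.62, 1.86, 1.77 and 3.36 in LKO ethanol. The 4 groups overlapped, and the ethanol change averaged over genotypes was −0.10 (SE 0.275, adjusted p = 0.89). Bcl6 encodes a transcriptional repressor that growth hormone lowers and that opposes STAT5 at shared sites. Its values were 2.47, 2.44, 3.75 and 4.23 FPKM in WT control, 3.82, 0.591, 2.77 and 3.36 in WT ethanol, 1.40, 3.09, 2.34 and 4.83 in LKO control, and 3.19, 1.53, 5.09 and 2.80 in LKO ethanol. The Bcl6 groups overlapped as well, with a change of −0.11 on ethanol (SE 0.250, adjusted p = 0.86).

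Igf1, the growth factor made by the liver under growth hormone, did not show a change on ethanol beyond the spread of the libraries. It measured 115, 81.7, 96.8 and 91.1 FPKM in WT control, 124, 74.8, 49.2 and 45.8 in WT ethanol, 73.6, 79.8, 96.5 and 66.5 in LKO control, and 94.2, 49.8, 62.4 and 95.0 in LKO ethanol. The ethanol libraries overlapped with the control libraries in both genotypes. WT ethanol library 1 had the highest Igf1 of all 16. Igf1 changed by −0.49 in WT (SE 0.316, adjusted p = 0.42), by −0.11 in LKO (adjusted p = 1) and by −0.30 averaged over genotypes (SE 0.224, adjusted p = 0.49). The within-side differences of Igf1 in WT had opposite signs, 0.36 among libraries 1 and 2 and −0.97 among libraries 3 and 4. With libraries weighted by their spread, Igf1 changed by −0.90 in WT (adjusted p = 0.00176) and by −0.46 in the average (adjusted p = 0.0179), where 38.4% and 36.7% of all genes were called. Weighted in the same way, Igf1 differed between LKO and WT on ethanol by 0.59 (adjusted p = 0.0458, 30.7% of all genes called). Without weights that difference was 0.10. Within sides it was −0.85 among libraries 1 and 2, with 1 WT library, and 0.69 among libraries 3 and 4. The weighted values give a weight of 4.998 to WT ethanol library 3 (49.2 FPKM) and of 0.278 to library 1 (124 FPKM).

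Igfals, the acid-labile subunit that stabilises circulating IGF1, was lower on ethanol in most libraries, and its call depended on the libraries and the scaling used. It measured 47.1, 27.8, 75.3 and 71.8 FPKM in WT control and 25.2, 17.6, 29.2 and 23.0 in WT ethanol. In LKO it measured 35.9, 56.2, 61.7 and 35.8 with the control diet, against 21.6, 16.3, 22.4 and 70.5 with ethanol. In WT the groups overlapped through control library 2 alone, which lay below ethanol library 3. LKO ethanol library 4 exceeded every LKO control library, and the other 3 LKO ethanol libraries lay below all of them. Averaged over genotypes Igfals changed by −0.92 (SE 0.288, adjusted p = 0.061), with −1.11 in WT (adjusted p = 0.13) and −0.72 in LKO (adjusted p = 0.66). It passed the threshold without LKO ethanol library 4 (−1.14, adjusted p = 0.00717), without WT ethanol library 2 (−0.85, adjusted p = 0.0471) and without WT control library 2 (−1.06, adjusted p = 0.039), and not without both libraries that stood apart (adjusted p = 0.0511). It also passed with quantile scaling (adjusted p = 0.0477), where 737 of all genes were called higher and 715 lower. With median-of-ratios scaling it passed too (adjusted p = 0.0434), where 662 were higher and 676 lower. Igfals passed as well with weighted libraries (−0.70, adjusted p = 0.032, 36.7% of all genes called), and with a term for the sides without WT ethanol library 2 (adjusted p = 0.0139). Each of these fits called more genes than the unchanged fit, where 519 were higher and 360 lower. They share libraries, so these passes are not independent of each other. Among libraries 1 and 2 the Igfals difference was −0.51 in WT and −1.21 in LKO, and among libraries 3 and 4 it was −1.47 and −0.23.

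The IGF binding proteins among the members did not pass the test in any of the 7 comparisons fitted on all 16 libraries without weights. Igfbp2, an abundant carrier of IGF1 made by hepatocytes, measured 507, 310.3, 849.7 and 751 FPKM in WT control, 263, 373, 792 and 658 in WT ethanol, 508, 1035, 716 and 683 in LKO control, and 481, 813, 451 and 565 in LKO ethanol. Igfbp3, whose protein forms the circulating complex with IGF1 and the acid-labile subunit, measured 2.66, 5.32, 9.32 and 5.67 in WT control, 3.37, 2.92, 9.13 and 15.3 in WT ethanol, 6.01, 5.05, 10.02 and 5.69 in LKO control, and 2.53, 7.74, 5.34 and 8.30 in LKO ethanol. All groups overlapped for both genes. Averaged over genotypes, Igfbp2 changed by −0.29 on ethanol (SE 0.274, adjusted p = 0.60) and Igfbp3 by 0.01 (SE 0.310, adjusted p = 0.99). With weighted libraries Igfbp3 differed on ethanol in WT by 0.83 (adjusted p = 0.0402, 38.4% of all genes called).

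The 10 members were counted as a list, which was not tested as a set. On ethanol, averaged over genotypes, 1 of the 10 was lower and 9 were not called, where 7.78% of all genes were called. Of the 10 changes 9 were below 0, with a median log2 change of −0.22 beside 0.02 over all genes. Without WT ethanol library 2 the count was 2 of 10 lower, Ghr and Igfals, where 20.5% of all genes were called. Of the 10 changes in that fit 5 were below 0, and the median was −0.03 beside 0.11 over all genes. With weighted libraries 3 members were called, where 36.7% of all genes were. Between genotypes no member was called on all 16 libraries without weights. There 0.00885% of genes were called on the control diet, 0.0797% on ethanol and 0.142% in the average. With weighted libraries Ghr, Igf1 and Stat5a were called on ethanol, where 30.7% of all genes were. Stat5a was called in the average with weights, where 34.1% were, and with the sides term without WT ethanol library 2. The median member difference of LKO against WT was 0.04 averaged over diets, beside −0.08 over all genes, and −0.09 without WT ethanol library 2, beside −0.18, so its sign rested on that library.

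Among other receptors and signalling genes of the pathway, 14 of 16 were tested and 2 were lower on ethanol averaged over genotypes, Prlr and Lifr, where 7.78% of all genes were called. Prlr, the prolactin receptor and a relative of Ghr, measured 20.01 to 28.7 FPKM in WT control and 5.47 to 16.4 in WT ethanol, a change of −1.40 in WT (adjusted p = 0.0336). In LKO it measured 10.7 to 21.5 with the control diet and 5.49 to 18.6 with ethanol, which overlap, and the averaged change was −0.96 (SE 0.249, adjusted p = 0.0253). Lifr, a receptor of the same cytokine receptor class, changed by −1.20 in the average (SE 0.227, adjusted p = 0.00355). Jak2, the kinase bound to the receptor, was among the 12 not called. The median of this list was −0.03. Without WT ethanol library 2 the list had 3 lower and 2 higher genes and a median of 0.12, where 20.5% of all genes were called. The Prlr call in WT was lost without any 1 of the WT control libraries or without WT ethanol library 3 or 4 (adjusted p up to 0.0925). The Prlr call in the average was lost without WT control library 1 or 4 or without library 2 or 3 of either LKO group (adjusted p up to 0.0601). Both Prlr calls were lost with no filter on low values (adjusted p = 0.0704 in WT and 0.059 in the average).

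Among other IGF ligands and binding proteins 5 of 11 genes were tested, and 1 of the 5, Igfbp1, rose, where 7.78% of all genes were called. Igfbp1, a binding protein induced in fasting and stress, changed by 1.81 averaged over genotypes (SE 0.523, adjusted p = 0.0425). Its values were 60.5, 23.6, 175 and 81.1 FPKM in WT control and 533, 117, 636 and 482 in WT ethanol. In LKO they were 45.1, 67.1, 128 and 121 with the control diet, against 194, 683, 218 and 42.6 with ethanol, and LKO ethanol library 4 lay below every LKO control library. The Igfbp1 call held without WT control library 3, WT ethanol library 2 or LKO ethanol library 4, and was lost without any other single library (adjusted p up to 0.0969), and also with no filter on low values (adjusted p = 0.119) and with a pseudocount of 0.1 (adjusted p = 0.0502). Of 13 transcription factors linked to growth hormone in liver, Nr3c1, the glucocorticoid receptor, was lower at −0.51 (SE 0.151, adjusted p = 0.0475), and 12 were not called, again beside 7.78% of all genes. The Nr3c1 call held without WT control library 3, WT ethanol library 1 or 2, or LKO ethanol library 1, and was lost without any other single library (adjusted p up to 0.106) and with voom on recovered reads (adjusted p = 0.0509).

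**Figure D3:**
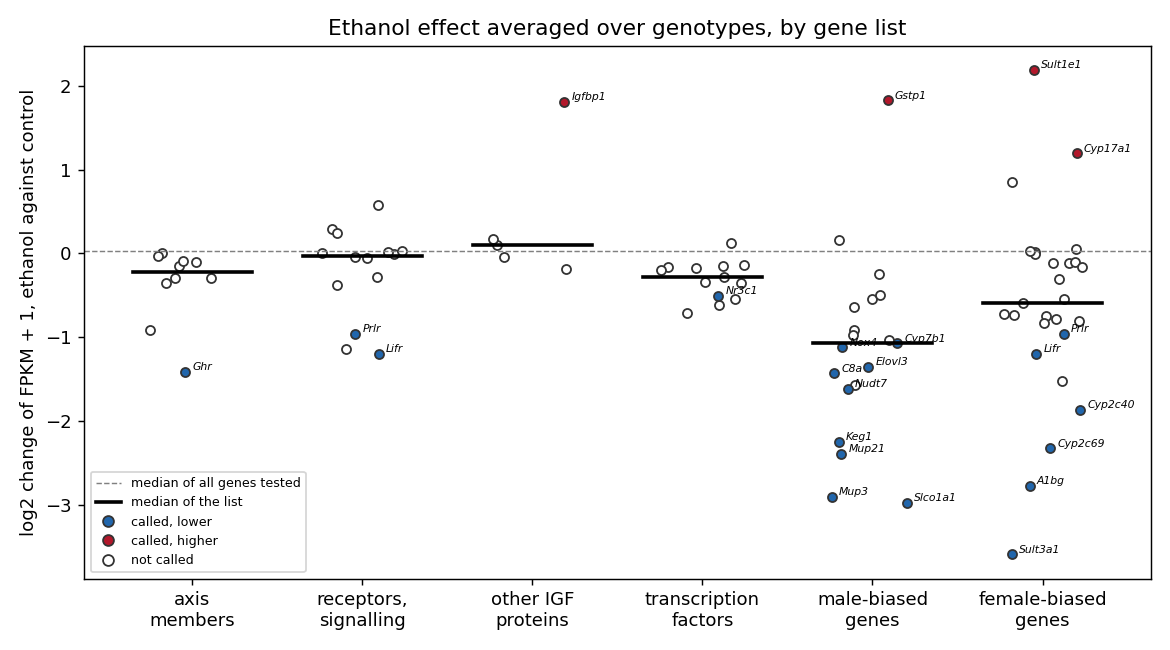
Log2 change of FPKM + 1 on ethanol averaged over genotypes (vertical axis) for each tested gene of 6 lists, with filled points at an adjusted p under 0.05, a bar at each list's median and a dashed line at the median of all genes. Called genes of the male-biased list are mostly lower, with a list median of −1.08 against 0.02 for all genes.

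Sex-biased liver genes that depend on growth hormone were called in both directions, mostly lower. Of 25 male-biased genes 19 were tested on ethanol averaged over genotypes, and 9 were lower and 1 higher, with a median change of −1.08, where 7.78% of all genes were called. Of 27 female-biased genes all 27 were tested, and 6 were lower and 2 higher, with a median of −0.59. The female-biased average combined unlike values by genotype, with 6 lower, 1 higher and a median of −1.30 in WT, where 4.18% of all genes were called. The WT median was −0.84 without WT ethanol library 2. In LKO, where 0.425% were called, 0 of the list were, with 15 of 27 genes above 0 and a median of 0.09. That difference between genotypes was not tested for the list, and without both libraries that stood apart the LKO median was −0.49 with 2 genes lower, where 1.44% of all genes were called. The male-biased list had 4 lower and 1 higher in WT (median −0.81), and 2 lower in LKO (median −1.26). The 2 in LKO were Nudt7 and Slco1a1, and each lost its call without 5 of the single libraries (adjusted p up to 0.146). Both LKO calls were also lost with no filter on low values (adjusted p = 0.087 for Nudt7 and 0.115 for Slco1a1). Without both libraries the LKO median of the male-biased list was −0.71, with 2 lower and 1 higher. The female-biased list shares Prlr and Lifr with the receptor list and Cux2 with the transcription factor list. Several genes of the sex-biased lists belong to families of near-identical copies (Mup, Cyp2c, Cyp3a and Sult genes) whose reads cannot be assigned with certainty. Without both libraries that stood apart the counts were 10 lower and 1 higher of 19 male-biased genes, and 9 lower and 2 higher of 27 female-biased genes, where 16.9% of all genes were called.

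Named genes show both directions. Keg1, a male-biased gene of the glycine N-acyltransferase family, changed by −2.25 in the average (SE 0.331, adjusted p = 0.000784), and Slco1a1, an organic anion transporter, by −2.98 (SE 0.505, adjusted p = 0.00198). Nudt7, a peroxisomal hydrolase of coenzyme A, changed by −1.62 in the average (adjusted p = 0.00151). Gstp1, a glutathione transferase, was higher by 2.22 in WT (adjusted p = 0.0267), and Mup21, a major urinary protein gene, changed by −2.37 in WT (adjusted p = 0.0326). Among female-biased genes Cyp2c40 changed by −2.91 in WT (adjusted p = 0.0193), Cyp2c69 by −3.53 in WT (adjusted p = 0.0313) and A1bg by −2.78 in the average (adjusted p = 0.00769). Sult1e1, the estrogen sulfotransferase, rose by 2.19 in the average (SE 0.404, adjusted p = 0.00313), and its 8 ethanol libraries all lay above its 8 control libraries. Between genotypes, Elovl3, a fatty acid elongase, was higher in LKO by 1.98 averaged over diets (adjusted p = 0.0112), and Atp6v0d2, a subunit of the vacuolar proton pump, changed by −1.24 (adjusted p = 0.0357). Calls in WT were lost without WT control library 1, 2 or 4 or WT ethanol library 4 for Gstp1 (adjusted p up to 0.0925), Mup21 (up to 0.103), Cyp2c40 (up to 0.0635) and Cyp2c69 (up to 0.0925), and without WT ethanol library 3 for Gstp1, Mup21 and Cyp2c69. Mup21 was lost without WT control library 3 and with voom (adjusted p = 0.0759) as well. The Atp6v0d2 call held without WT control library 1, LKO ethanol library 2 or any WT ethanol library, and was lost without each other library (adjusted p up to 0.11). With no filter on low values the calls of Elovl3 (adjusted p = 0.091), Atp6v0d2 (0.152), Gstp1 (0.0718), Mup21 (0.0913), Cyp2c40 (0.0593) and Cyp2c69 (0.0898) were lost.

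LKO control library 4 carried a distinct sex-biased profile. Among the 15 libraries other than WT ethanol library 2 it was the highest for 23 of the 25 male-biased genes and the lowest for 16 of the 27 female-biased genes, whereas no other library was the highest for more than 1 male-biased gene. Its summed level of the male-biased list was 12694 FPKM, against at most 4789 in any other library. Cyp2d9 measured 279.5 FPKM in it and at most 50.2 elsewhere, Mup7 168.6 against at most 0.916, and Hsd3b5 39.2 against at most 4.52. Sult2a1 was listed at 0 in it and measured at least 38.4 FPKM in every other library. Its Xist level was 24.98 FPKM, inside the range of the other libraries. In the same library Socs2 (1.91), Cish (0.871), Igf1 (66.5) and Igfals (35.8) were the lowest of the LKO control group. Ghr (132), Bcl6 (4.83) and Stat5b (11.1) were the highest of it. In a group of 4 any library is often the lowest or highest, and these ranks were not tested.

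**Figure D4:**
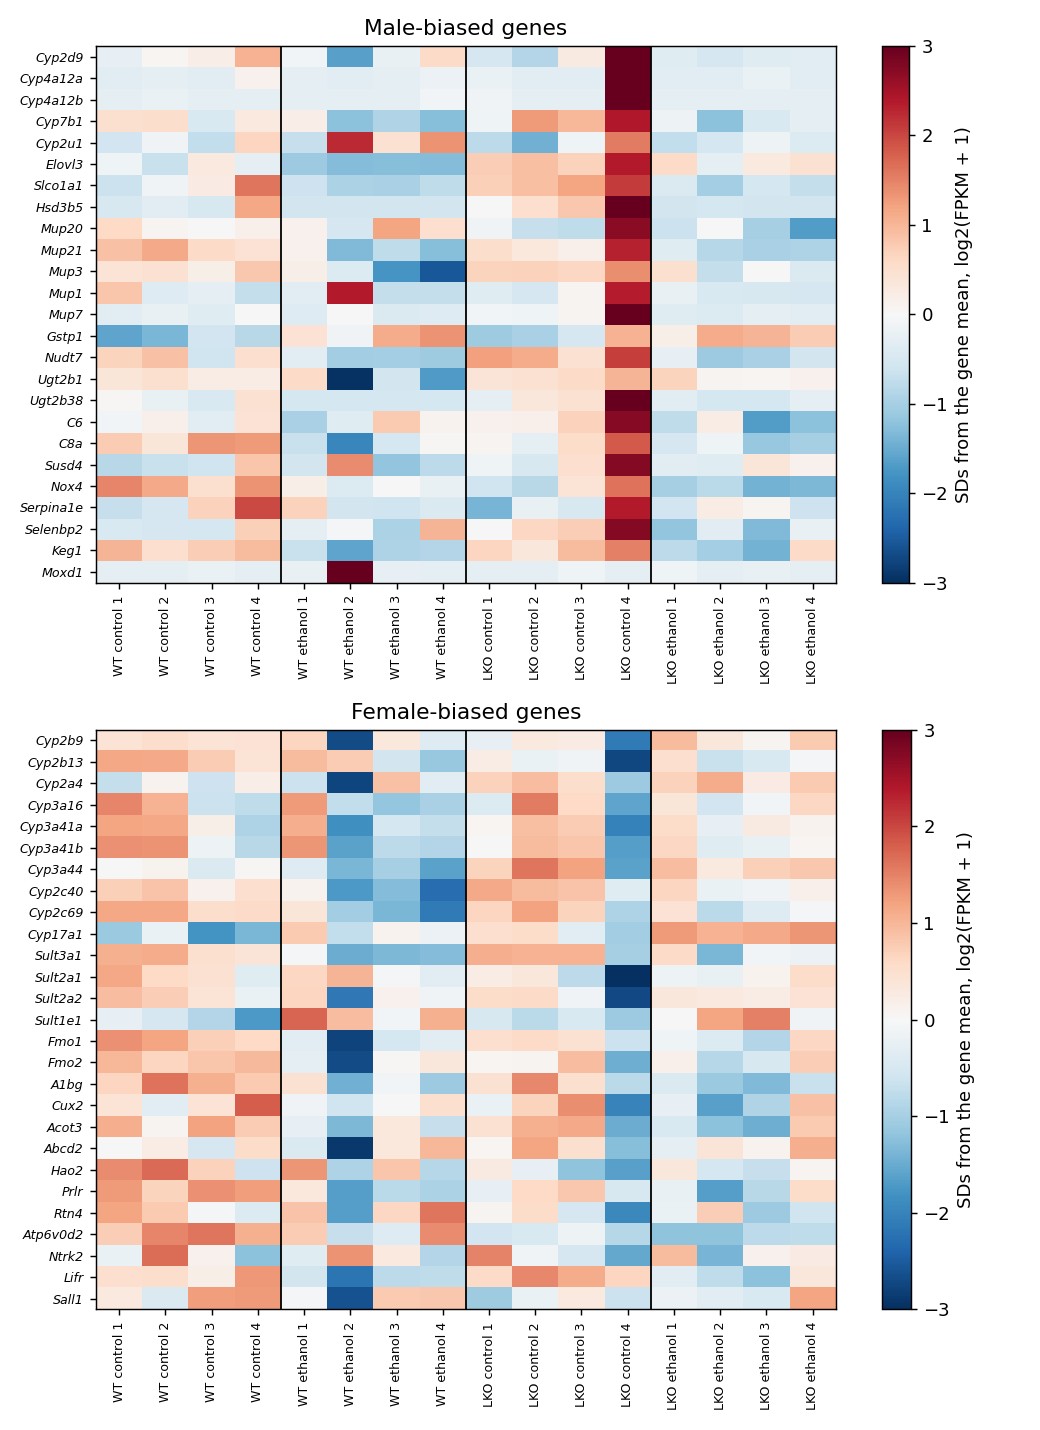
Level of each sex-biased growth hormone dependent gene (rows) in each library (columns), as SDs of log2(FPKM + 1) from the gene's mean over 16 libraries, male-biased above and female-biased below. The column of LKO control library 4 is high for 23 of 25 male-biased genes and low for 16 of 27 female-biased genes among 15 libraries.

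Markers of liver cell types were examined beside the members. Averaged over genotypes, 0 of 9 hepatocyte markers were called on ethanol, 0 of 8 macrophage markers, 1 of 8 endothelial markers (higher), 2 of 8 stellate cell markers (higher), 1 of 2 tested cholangiocyte markers (higher) and 0 of 4 tested leukocyte markers, where 7.78% of all genes were called. Without WT ethanol library 2, where 20.5% of all genes were called, 2 hepatocyte markers were higher and 2 lower, 1 macrophage, 3 endothelial and 3 stellate cell markers were higher, and 1 cholangiocyte marker was higher and 1 lower. In WT alone, where Ghr changed most, 1 macrophage and 1 stellate cell marker were higher and no other marker of these lists was called, beside 4.18% of all genes. Without WT ethanol library 2 the WT counts were 2 macrophage, 2 endothelial and 2 stellate cell markers higher, and 1 hepatocyte marker higher and 1 lower, beside 9.48% of all genes. The median change of the hepatocyte list in the average was −0.17 beside −1.42 for Ghr. The part of cell composition in the Ghr difference was not tested.

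Over the 16 libraries, the genes whose FPKM followed Igf1 most closely were Prlr (Spearman rho 0.776), Dcun1d1 (0.771) and Cyp2b13 (0.753). For Igfals they were Tfr2 (0.929), Paqr9 (0.921) and Nlrp6 (0.909), and for Socs2 Zfp292 (0.826), Cyp2j9 (0.779) and Trmt10b (0.774). These values describe the 16 libraries, which share the diet and genotype groups, the library that stood apart and the 2 sides within groups.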

How the data were processed

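Liver RNA of 16 libraries in 4 groups of 4 was analysed from 1 table of FPKM values deposited by the authors. Per the submitters' processing notes, fastp, STAR 2.6.1, HTSeq and DESeq2 were used with build mm10, in no stated roles. The annotation, strandedness and handling of shared reads are not given in the sources used here. Symbols and positions came from GENCODE M21 (GRCm38), for 34490 of 35275 IDs, and promoters from RefSeq. Within each gene the FPKM values were whole multiples of 1 read, for 100% of values within 0.1 read among 20520 genes above 0 in at least 4 libraries. In each library 48.5 to 51.0% of counts of 20 or more were odd. The recovery was tested on simulated data with known reads, after a first version that misjudged libraries of unequal depth was corrected, and the reads recovered here were the same with both versions.

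Genes with an FPKM of at least 1 in at least 4 libraries were fitted as log2(FPKM + 1) in a group-means model (limma 3.58.1, R 4.3.3, eBayes with trend) and adjusted by Benjamini-Hochberg, two-sided, at 0.05. Changes of low genes are understated on this scale. The fit was also tested on simulated data. Alternatives were no filter, a pseudocount of 0.1, quantile and median-of-ratios scaling, array weights (gene by gene, because the default did not converge), voom on the recovered reads, leaving out each library, and a term for the sides within groups. Leaving out both libraries that stood apart, and fits of 10 libraries with consecutive title numbers with and without a replicate block, were chosen after seeing the data. Named genes were the members, Zfp36l1, up to 3 called genes per list and comparison with the smallest adjusted p, and the 3 genes most like Igf1, Igfals and Socs2. Sult2a1, Cyp2d9, Mup7 and Hsd3b5 were chosen after their values were seen. The members and lists were chosen with earlier results of these data known.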

Additional observations from a re-analysis of the deposited data

Results flagged for a closer look

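Member values were examined in 40 groups of 4 libraries for a library far from its group, a test that chance alone would meet in about 1 of 20 groups, and 4 met it. Igfals measured 70.5 FPKM in LKO ethanol library 4, where the other 3 libraries lay at 16.3 to 22.4. Cish in the same library measured 3.36, against 1.62 to 1.86. Stat5b measured 1.44 FPKM in WT ethanol library 2, the library with the lowest depth and the most mitochondrial reads, against 9.57 to 10.7. Socs2 measured 1.27 FPKM in WT control library 2, against 12.7 to 14.2 in the other 3, from 129 reads.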

How the results depend on the processing

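Ghr was lower in WT (−2.13 to −1.56) and in the average (−1.56 to −1.20) under every alternative run, and kept both calls except in the fits of 10 libraries. A replicate block was tried after seeing the data, on 5 control and ethanol pairs whose titles carry consecutive numbers, which no label calls pairs and of which 1 ethanol library neighbours 2 controls. Deviations from group means correlated at −0.063, 0.23, 0.25, 0.45 and 0.28 within these pairs, and at −0.20 for that library and its other neighbour, and not every library correlated best with its own number. The replicate block called 1, 1 and 1 genes on ethanol in WT, LKO and the average, with 0 members in each (Ghr −2.13, adjusted p = 0.168, and −1.56, adjusted p = 0.155). With the block the diet calls of all named list genes were lost (adjusted p = 0.0933 to 0.949). The same 10 libraries with no block called 24, 1 and 86, with 0 members in each. At an unadjusted p under 0.05 the block fit had 1623, 502 and 1572 genes. Depth limits Cish and Stat5a most in WT ethanol library 2, with 0 and 16 reads. In the other libraries the lowest counts were 93 for Cish, 123 for Igfbp3, 125 for Bcl6, 129 for Socs2 and 138 for Stat5a. Both scalings moved the median of all genes on the control diet between genotypes, by 0.10 and 0.10, and the share of higher calls on ethanol averaged over genotypes from 59.0% to 50.8% and 49.5%. In WT that share went from 61.9% to 50.4% and 49.5%. Among the alternative values of single genes, 1003 kept direction and call, 139 lost the call, 16 gained it and 40 reversed. The cause was not tested for the changes below.

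All-gene counts are given in the order WT ethanol, LKO ethanol, ethanol average, LKO against WT on control, on ethanol and averaged, and interaction. Leaving out 1 library gave 146 to 1071, 6 to 409, 519 to 2312, 1 to 5, 1 to 387, 8 to 121 and 0 to 6, with 0 to 1 members called in LKO and 1 to 2 in the ethanol average. The highest ethanol counts came without WT ethanol library 2, and 387 without WT ethanol library 1. With no filter, which tests more genes, 283 and 18 were called for ethanol in WT and LKO, and 3 and 5 between genotypes on ethanol and averaged. Quantile scaling gave 932, 105 and 1452 for the ethanol comparisons, 2 on the control diet, and 2 members in the average. Median-of-ratios scaling gave 765, 122 and 1338, with 2 members in the average. Array weights gave 4334, 869, 4147, 260, 3465, 3848 and 506, with 3 members in WT (Ghr, Igf1, Igfbp3), 1 in LKO (Ghr), 3 in the average (Ghr, Igf1, Igfals), 3 between genotypes on ethanol (Ghr, Igf1, Stat5a) and 1 between genotypes averaged (Stat5a). Voom gave 5 and 10 between genotypes on ethanol and averaged. Without WT ethanol library 2 and with a term for the sides, the counts were 2229, 1206, 3684, 9, 178 and 1255, with 1 member in LKO, 2 in the average and 1 between genotypes averaged. Without both libraries that stood apart they were 948, 163 and 1905 on ethanol, and 23 and 49 between genotypes on ethanol and averaged.

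Signs reversed for small changes. On ethanol averaged over genotypes, Igfbp3 was −0.013 with a pseudocount of 0.1, −0.020 with quantile and −0.026 with median-of-ratios scaling, and −0.020 in both fits of 10 libraries. With array weights, the sides term and both libraries left out, Stat5a was 0.25, 0.18 and 0.22, and Bcl6 0.11, 0.038 and 0.18. With array weights and the sides term Cish was 0.043 and 0.076, and with the sides term Socs2 was 0.020. Ghr between genotypes on the control diet was 0.0066 with median-of-ratios scaling. Leaving out 1 library, the ethanol average ranged from −0.19 to 0.15 for Igfbp3, −0.12 to 0.21 for Stat5a, −0.49 to 0.076 for Socs2, −0.25 to 0.098 for Cish and −0.21 to 0.070 for Bcl6. Igf1 in LKO ranged from −0.24 to 0.071, and on ethanol LKO against WT from −0.085 to 0.39 for Igf1 and −0.22 to 0.46 for Igfals.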
